A study of Mus musculus with 2 samples.

Results

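Ly6a, Pdgfra, Thy1 and Cd34 are 4 surface marker genes by which mesenchymal progenitors are commonly isolated, and their transcripts were followed in single αSMA-labeled cells of the periosteum. The 4 genes were chosen by name, as the genes for Sca1, PDGFRα, CD90 and CD34, from the 17938 genes listed for either of the 2 plates. Their values come from 503 wells, each sorted to hold 1 cell, in which at least 200 genes were detected. Wells were grouped by time after tamoxifen, by whether they held a transcript of Rgs5, a pericyte gene, and by whether they held 3 or more transcripts of the tendon genes Thbs4, Fmod and Tnmd in all.

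Ly6a encodes Sca1, a small protein of the Ly6 family held to the outer membrane by a lipid anchor, which marks mouse blood stem cells, many capillary endothelial cells and fibroblast-like progenitors of several tissues. Pdgfra encodes PDGFRα, a receptor tyrosine kinase for platelet-derived growth factors that is carried by most fibroblasts and mesenchymal progenitors and usually not by mature pericytes, which carry its relative PDGFRβ. Thy1 encodes CD90, another lipid-anchored protein, found on fibroblasts, neurons and mouse T cells. Cd34 encodes a heavily glycosylated transmembrane protein shared by blood progenitors, endothelial cells and fibroblasts of the outer vessel wall. None of the 4 is restricted to progenitors, so that combinations of them, with endothelial and blood cells excluded, are used to sort the cells.

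All mice carried αSMACreER, which expresses a tamoxifen-activated Cre under the αSMA promoter, and Ai9, a reporter that turns Cre-active cells and their descendants red (Tomato+). Tamoxifen was given in 2 injections of 75 mg/kg one day apart, and Tomato+ cells were sorted from the digested periosteum of tibia and femur (30 min with collagenase and hyaluronidase), pooled from 2 to 3 female mice per time point. The 2-day cells came from aSMACreER/Ai9/Col2.3GFP mice aged 10.3 weeks after 2 days of chase, and the 6-week cells from the same strain at 14.4 weeks of age after 43 days. The 13-week cells came from aSMACreER/Ai9/R26-M2rtTA/TetOP-H2B-GFPH2B mice aged 20.1 weeks after 96 days, which had also received doxycycline for 5 weeks in early life. The labels and the headers of the count tables call these wells 13 weeks, while the separate well map names a slightly earlier time for them. The 2-day and 13-week cells shared a plate and the 6-week cells had a plate of their own. At both later times the age of the mice and the length of the chase cannot be told apart, and neither can strain and doxycycline at 13 weeks or the plate at 6 weeks. Each time point was 1 pool, so time points were not compared by a test, and intervals on single values are exact 95% intervals for counting error only.

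In the mouse genome GRCm38 (GENCODE release M21), Ly6a (ENSMUSG00000075602.10) lies on chr15:74994877-74998031 on the minus strand. Pdgfra (ENSMUSG00000029231.15) lies on chr5:75152292-75198215, Thy1 (ENSMUSG00000032011.5) on chr9:44043384-44048579 and Cd34 (ENSMUSG00000016494.9) on chr1:194938819-194961279, all on the plus strand. Promoter sequence was at hand for Pdgfra and Cd34, the pair that rose in wells with Ly6a, and not for Ly6a or Thy1. The 250 bases before the RefSeq start (GRCm38.p6, plus strand, Pdgfra at chr5:75152001-75152250 and Cd34 at chr1:194938571-194938820) are shown with the 30 bases nearest the start in capitals.
Pdgfra: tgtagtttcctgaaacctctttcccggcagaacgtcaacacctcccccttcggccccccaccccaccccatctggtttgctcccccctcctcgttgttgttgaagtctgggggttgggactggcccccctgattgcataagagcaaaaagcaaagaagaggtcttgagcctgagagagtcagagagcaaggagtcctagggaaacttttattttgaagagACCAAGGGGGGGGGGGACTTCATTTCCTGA
Cd34: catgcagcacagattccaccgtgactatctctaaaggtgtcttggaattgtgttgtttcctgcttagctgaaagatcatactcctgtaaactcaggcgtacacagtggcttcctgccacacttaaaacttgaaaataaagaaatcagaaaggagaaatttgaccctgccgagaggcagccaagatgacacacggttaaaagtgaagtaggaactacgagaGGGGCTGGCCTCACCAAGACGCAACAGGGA
The Pdgfra window holds 54.4% G and C and the Cd34 window 46.4%, against a median of 52.4% over 32851 RefSeq promoters cut to the same length. The letters TATAAA (the TATA box), then GGGCGG (the GC box) and CCAAT (the CCAAT box), which do not overlap each other, were searched on both strands. None of these is in either window, while 12.4%, 32.7% and 33.8% of all promoters hold them, which says only that these letters are not in these bases.

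The 2-day, 6-week and 13-week lines kept 181, 189 and 133 wells, which held 171209, 156763 and 117824 UMIs. A UMI is 1 captured molecule, counted at the 3′ end of the transcript. Median depth was 672 to 795 UMIs per well, and the 6-week plate was sequenced to 7.65 reads per UMI against 5.02 and 5.50 for the 2-day and 13-week wells. The 2 plates use 216 barcodes in common, so wells were identified by plate and barcode. Acta2, the gene whose promoter drives the label, was at 3.83 to 13.5 UMIs per 10000 in the sums of wells with and without Rgs5 at the 3 times. Transcripts on lists for other cell types were found in 67 (hemoglobin), 172 (skeletal muscle fiber) and 233 (endothelial) of the 503 wells, and some lay mostly in a few wells. Of 1229 hemoglobin UMIs, 94.3% were in 3 wells, immune list UMIs were found in 9 wells and Schwann cell list UMIs in 19, and 17 wells held 10 or more UMIs of skeletal muscle fiber genes.

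Ly6a was found in more wells than the other markers. It had 170 UMIs in 63 of the 2-day wells, 185 UMIs in 62 of the 6-week wells and 143 UMIs in 49 of the 13-week wells. Cd34 had 61 UMIs in 42 wells, 37 in 22 and 46 in 23 at the same times. Thy1 had 27 UMIs in 18 wells, 25 in 19 and 15 in 11. Those 3 genes were thus present at every time. Pdgfra, the growth factor receptor, had 33 UMIs in 23 wells at 2 days, 29 in 21 at 6 weeks and 4 in 3 wells at 13 weeks.

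Most detections rested on a single molecule. Exactly 1 UMI was found in 45.4% of the 174 wells with Ly6a, and the richest well held 21. For Pdgfra, Thy1 and Cd34, 76.6% of 47 wells, 75.0% of 48 and 66.7% of 87 had exactly 1 UMI, and the highest well held 5, 4 and 6. Wells with a UMI of a marker were deeper than those without it, with median totals of 899 against 631 UMIs for Ly6a, 1188 against 700.5 for Pdgfra, 1136 against 693 for Thy1 and 1020 against 663.5 for Cd34. A well without a UMI was therefore not shown to lack the transcript. In the 17 wells with muscle fiber transcripts (median 411 UMIs), which should lack these markers, 1 well held a Cd34 UMI and 0 wells held the other 3, which allows a level of up to 3.21 per 10000 for those (3 counts of 9339 UMIs).

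To compare times at equal depth, each well was thinned at random to 300 UMIs, which left 175, 182 and 126 wells. Ly6a was then detected in 21.7%, 17.6% and 22.2% of the 2-day, 6-week and 13-week wells (34.8%, 32.8% and 36.8% before thinning). Cd34 was detected in 8.57%, 4.95% and 6.35% (23.2%, 11.6% and 17.3% before thinning), and Thy1 in 2.86%, 1.65% and 1.59% (9.94%, 10.1% and 8.27%). Pdgfra was detected in 5.14% at 2 days and 6.59% at 6 weeks. At 13 weeks it was in 0 of 126 wells, which allows a share of up to 2.38% (before thinning, 12.7%, 11.1% and 2.26%). The difference between 13 weeks and 2 days was -5.14 percentage points (-9.54 to -1.15). These shares come from 1 random draw. Averaged over all possible draws of 300 UMIs, Ly6a was at 19.1%, 20.5% and 22.4%, Cd34 at 9.74%, 4.43% and 7.25%, Thy1 at 4.04%, 3.35% and 3.04% and Pdgfra at 4.82%, 4.59% and 0.573%.

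The markers were then compared between classes of wells. An Rgs5 UMI was found in 118 wells (35, 45 and 38 at the 3 times), and 187 wells (70, 68 and 49) passed the tendon gate of 3 UMIs. Wells with Rgs5 only numbered 105, wells in the tendon gate only 174, wells with both 13 and wells with neither 211. The genes that were highest in Rgs5 wells were those of capillaries as well as pericytes: Kcnj8, a potassium channel subunit of pericytes, was 4.70 ± 0.55 higher (log2, SE), and Fabp4, a fatty acid carrier, and Pecam1, an endothelial adhesion protein, were 4.97 and 4.16 higher. All 6 tested genes of an endothelial list rose in these wells. The summed level of all 16 listed genes was 157 UMIs per 10000 with Rgs5 and 13.5 without, so that the Rgs5 wells carried endothelial as well as pericyte transcripts. Whether both came from 1 cell was not tested. Wells in the tendon gate had more Angptl7, Scx, the tendon transcription factor, and Kera, a small proteoglycan (5.19, 4.48 and 4.53 higher), and all 11 tested genes of the tendon list besides the gate genes rose.

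Ly6a, Pdgfra and Cd34 were highest in the wells outside both gates, and Thy1 was not. Pooled over times, Ly6a reached 17.0 UMIs per 10000 in wells with neither gate, 9.94 with Rgs5 only and 5.09 in the tendon gate only. By time, its level was 13.4, 19.0 and 20.2 in wells with neither gate (2 days, 6 weeks and 13 weeks), 8.79, 11.6 and 8.77 with Rgs5 only and 6.05, 3.69 and 5.38 in the tendon gate only. The 3 classes did not overlap for Ly6a, in the order neither, Rgs5, tendon. This describes 3 values per class, and the share of all genes without overlap is not given.

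Pdgfra reached 2.55 UMIs per 10000 in wells with neither gate and 0.72 and 0.68 with Rgs5 only and the tendon gate only. Its values in the 3 lines were 2.65, 3.79 and 0.639 with neither gate, 1.85, 0.579 and 0 with Rgs5 and 1.18, 0.369 and 0.256 in the tendon gate, so that the highest class led at each time although the values overlapped across times. Cd34 reached 5.94, 1.68 and 0.87 in the same classes. Cd34 was at 5.31, 5.01 and 8.30 with neither gate, at 5.09, 0.290 and 0.731 with Rgs5 only, where 11 of its 14 UMIs were from 2 days, and at 1.18, 0.554 and 0.769 in the tendon gate only. The Rgs5 and tendon classes overlapped for both genes. Thy1 was at 1.46 with neither gate, 1.32 with Rgs5 only and 1.62 in the tendon gate only, and its values at single times (0.365 to 2.78) overlapped throughout.

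**Figure D1:**
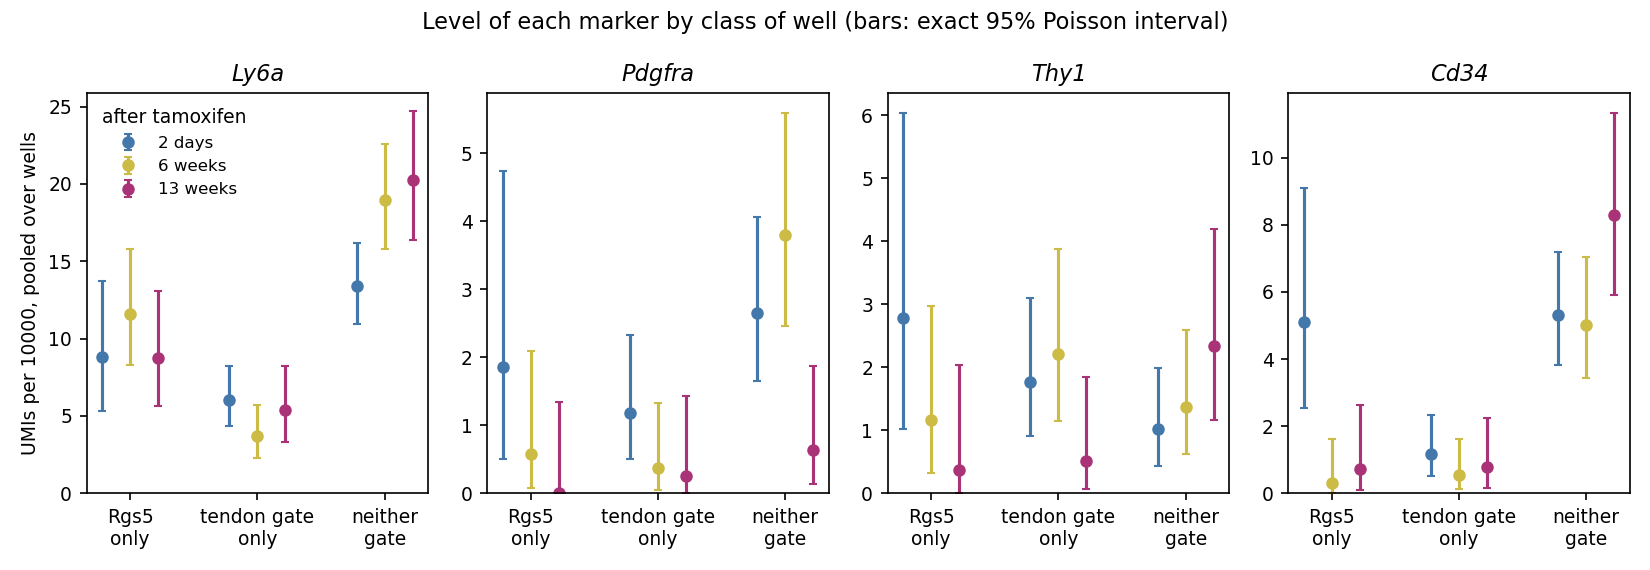
Level of each marker (y axis, UMIs per 10000 pooled over wells) in wells with Rgs5 only, in the tendon gate only and in neither gate (x axis), with 1 point per time after tamoxifen. Bars are exact 95% Poisson intervals. For Ly6a the points of the class outside both gates (13.4 to 20.2) lie above all others, while Thy1 overlaps between the classes.

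Tendon gate wells had less Ly6a and less Cd34 than the remaining wells. In the wells that passed the gate, Ly6a was at 6.38, 3.55 and 5.52 UMIs per 10000 (2 days, 6 weeks and 13 weeks), against 12.4, 16.4 and 16.0 outside it, and fell by 1.38 ± 0.26 on the log2 scale (SE, n = 3 pairs of sums, adjusted p = 0.00604). Cd34 was at 1.13, 0.533 and 1.15 against 5.26, 3.39 and 5.51 and fell by 2.18 ± 0.33 (adjusted p = 0.00184). The groups did not overlap for either gene over the 3 times, and the share of all genes without overlap is not given. Of the 4 markers 2 fell and 0 rose in the tendon gate, while 7.59% of the 1397 genes tested fell and 8.66% rose.

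Pdgfra was also lower in the tendon gate at each time, at 1.13, 0.355 and 0.230 UMIs per 10000 against 2.48, 2.69 and 0.404, but did not pass the test (-1.52 ± 0.47, adjusted p = 0.0557). It passed under 7 of the 14 alternatives in which it could be tested (it had too few UMIs without the 2-day or the 6-week wells), including a stricter gate of 5 UMIs (-2.19). Thy1 was at 1.84, 2.13 and 0.690 against 1.39, 1.29 and 1.61 (0.32 ± 0.41, adjusted p = 0.651). Of 18 tested genes of a fibroblast list, 4 fell with Ly6a and Cd34 in the tendon gate (Gsn, Dpt, Cd248 and C3) and 6 rose, among them Dcn and Col1a1. The p-values come from edgeR's quasi-likelihood test on UMI counts summed per time point and class, with Benjamini-Hochberg adjustment over all genes tested. They rest on 3 pairs of sums, since cells are not replicates, and on a dispersion estimated with information shared over genes. Differences between the pools are taken out by the block, so the p-values are not a measure of the spread between pools. Without the 6-week plate no gene was called (186 genes had an unadjusted p under 0.05), and Ly6a was at -0.98 (adjusted p = 0.156) and Cd34 at -1.97 (adjusted p = 0.0827), while without the 13-week wells Ly6a was at -1.36 (adjusted p = 0.0643).

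Rgs5 wells did not differ detectably from the other wells in any of the 4 markers. Ly6a was at 9.44, 10.9 and 8.48 UMIs per 10000 in wells with Rgs5 and 10.01, 12.1 and 13.5 in wells without (-0.17 ± 0.25, adjusted p = 0.754). Cd34 was at 4.51, 0.273 and 1.26 against 3.40, 2.997 and 4.88 (-0.97 ± 0.44, adjusted p = 0.142). Ly6a was lower with Rgs5 at each time, by less than the error, and Cd34 was higher with Rgs5 at 2 days and lower at both later times. Pdgfra had 6 UMIs in Rgs5 wells, 4, 2 and 0 at the 3 times, and 60 in the others (-1.09 ± 0.63, adjusted p = 0.274).

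Thy1 was at 2.87, 1.09 and 0.629 UMIs per 10000 with Rgs5 and 1.36, 1.75 and 1.51 without (0.03 ± 0.53, adjusted p = 0.986). Of the 4 markers 0 were called by edgeR and 0 by DESeq2, and 1, Cd34, had an unadjusted p under 0.05, while 6.79% of 1399 genes rose and 8.93% fell in Rgs5 wells. With the tendon gate wells left out, Cd34 was lower and passed the test (-1.66). Of 18 tested genes of a list for adventitial and interstitial fibroblasts 13 fell and 0 rose in Rgs5 wells (median -1.54 against 0.00 for all genes).

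The Rgs5 wells fell into those with and without endothelial transcripts, and Ly6a was found mostly in the former. Of 78 Rgs5 wells with 2 or more UMIs of the endothelial list (median depth 659 UMIs), 36 held Ly6a (46.2%, 11.3 UMIs per 10000). Of 40 Rgs5 wells with fewer (median 550.5 UMIs), 8 held it (20.0%, 5.66 per 10000). Among wells without Rgs5, Ly6a was found in 72.7% of the 66 wells with endothelial list UMIs (30.4 per 10000, median depth 903) and 25.7% of the 319 wells with fewer (6.25 per 10000, median depth 731). The list holds Ly6c1, a relative of Ly6a, and Fabp4 and Cd36, which fibroblasts and adipocyte precursors can also express, and the difference was not tested.

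Of the 503 wells, 274 held no UMI of the 4 markers, 137 held 1 marker, 61 held 2, 27 held 3 and 4 held all 4. The most frequent patterns were Ly6a alone in 88 wells, Ly6a with Cd34 in 29, Cd34 alone in 24, Thy1 alone in 16, Ly6a with Pdgfra in 15 and Ly6a, Pdgfra and Cd34 together in 14. Of the 31 wells with 3 or 4 markers, 25 were outside both gates. Pdgfra, Thy1 and Cd34 wells often held Ly6a too. It was found in 74.5% of wells with Pdgfra and 30.5% of those without, in 66.7% of wells with Cd34 and 27.9% of those without, and in 58.3% of wells with Thy1 and 32.1% of those without.

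Because deep wells show more of every gene, the number of wells with both genes of a pair was set beside the number given by the product of their shares within each time point and each of 3 strata of depth. Ly6a and Cd34 were found together in 58 wells against 36.5 by the product (ratio 1.59, 1.21 to 2.06). Ly6a and Pdgfra were together in 35 wells against 19.9 (1.76, 1.23 to 2.45), and Pdgfra and Cd34 in 20 against 10.6 (1.89, 1.15 to 2.92). These 3 pairs were found together more often than the product gives, with intervals that take wells as independent and the product as fixed. In the same order, 39, 23 and 17 of the wells with both were in the deepest stratum (median 1314 UMIs), within which depth still varied. The shallowest stratum (median 415 UMIs) held 3, 4 and 1 of them. For the pairs with Thy1 the interval included 1, at 28 against 21.5 with Ly6a (1.30, 0.866 to 1.88), 18 against 11.4 with Cd34 (1.58, 0.938 to 2.501) and 7 against 6.93 with Pdgfra (1.01, 0.406 to 2.08). With wells thinned to 300 UMIs, Ly6a was together with Cd34 in 16 wells against 6.62 (2.42, 1.38 to 3.93) and with Pdgfra in 9 against 4.06 (2.21, 1.01 to 4.20). The intervals of the other pairs then included 1, with Pdgfra and Cd34 together in 3 wells against 1.36 (2.20, 0.453 to 6.42) and Ly6a and Thy1 in 5 against 2.06 (2.43, 0.789 to 5.67).

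The wells with pairs lay mostly outside both gates, which were 29 of the 35 wells with Ly6a and Pdgfra, 43 of the 58 with Ly6a and Cd34 and 18 of the 20 with Pdgfra and Cd34. Of the wells with a single marker counted in turn, 91 of 174 with Ly6a, 60 of 87 with Cd34, 35 of 47 with Pdgfra and 21 of 48 with Thy1 were outside both gates.

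Which genes accompany each marker was measured by comparing the summed UMIs of wells with and without a UMI of that marker, with the marker itself left out of the test. Wells with Ly6a had more of the genes of adventitial and interstitial fibroblasts. C3, the central complement component, had 35, 63 and 16 UMIs in wells with Ly6a (2 days, 6 weeks and 13 weeks) and 4, 1 and 3 in wells without, and was 4.08 ± 0.49 higher (log2, SE, adjusted p = 0.000113). Scara5, a scavenger receptor of fibroblasts, Col14a1, a collagen associated with fibrils, Clec3b, which encodes tetranectin, and Myoc, which encodes myocilin, were 3.03, 3.01, 2.91 and 2.81 higher. Pi16 and Cd248, both markers of adventitial fibroblasts, were each 2.53 higher.

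Cd34 was at 5.68, 4.98 and 7.003 UMIs per 10000 in wells with Ly6a, against 2.08, 0.339 and 1.38 in wells without (2.23 ± 0.38, adjusted p = 0.00186). Pdgfra was at 3.26, 3.37 and 0.757 against 0.993, 0.678 and 0 (2.08 ± 0.42, adjusted p = 0.00477). Both were higher at each of the 3 times. Thy1 was at 2.55, 1.32 and 2.46 against 0.893, 1.81 and 0.308 and did not pass (0.99 ± 0.47, adjusted p = 0.246). Thus 2 of the other 3 markers rose, while 5.72% of 1399 genes rose and 4.79% fell. The Pdgfra call was lost with DESeq2 (2.29, adjusted p = 0.0941), without the line block (2.01, adjusted p = 0.106) and on reads (3.53, adjusted p = 0.148), and the Cd34 call without the 6-week plate (1.82, adjusted p = 0.0533).

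Of 18 tested genes of the adventitial and interstitial fibroblast list (20 listed), 12 rose in wells with Ly6a and 1, Col1a1, fell, with a median of 1.16 against 0.00 for all genes. Gsn, which encodes the actin-severing protein gelsolin, was at 75.0 UMIs per 10000 with Ly6a and 18.1 without. Col1a1, the chain of type I collagen that is made by both fibroblasts and osteoblasts, was at 51.8 against 81.6. All 6 tested genes of the endothelial list rose as well, among them Pecam1 (2.35 against 0.315 per 10000, although with 1 UMI against 3 at 2 days) and Flt1, a VEGF receptor (4.18 against 0.865). Ly6c1, another gene of the Ly6 family, was at 15.6 against 2.56, and Ly6e, a further member, at 4.54 against 2.12. Reads of Ly6 genes with near-identical sequence could be split between them or dropped in the authors' counting, and this was not tested.

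Genes of other cell types fell in wells with Ly6a. These were 9 of 14 tendon genes, among them Tnmd, a membrane protein of tendon cells, at 8.45 against 23.1 UMIs per 10000. Of 8 tested genes of the perivascular list 3 fell, the smooth muscle genes Acta2, Myh11 and Tagln, and Acta2 was at 1.98 against 8.46 per 10000. Of 5 tested genes of the osteoblast list 3 fell, which were Bglap, the gene for osteocalcin (3.39 against 14.2), Bglap2 and Col22a1. Col22a1 was also 4.05 higher in the tendon gate wells. All 8 tested skeletal muscle fiber genes fell, of which 42.3% of UMIs lay in 3 wells. Srgn, a proteoglycan of blood and endothelial cells, and Ptprb, an endothelial phosphatase, were 2.46 and 2.43 higher with Ly6a.

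Within the Rgs5 wells the genes that rose with Ly6a included endothelial genes. Among 44 Rgs5 wells with Ly6a and 74 without, 199 genes could be tested, of which 10 (5.03%) rose and 5 (2.51%) fell. The endothelial list had 4 of 5 tested genes higher, and its summed level was 246 UMIs per 10000 with Ly6a against 76.9 without. Flt1 was at 5.95, 15.8 and 17.0 against 1.40, 4.59 and 2.03 at the 3 times (2.25 ± 0.52, adjusted p = 0.000616) and Ptprb was 2.503 higher. Ly6c1 was at 29.7, 24.6 and 22.3 against 4.90, 5.10 and 10.2 (1.99 ± 0.40, adjusted p = 6.42e-05). Cd36, a fatty acid transporter of capillaries, and Fabp4 were 1.66 and 1.62 higher, as were Gpr116, an adhesion receptor of vessels (1.70), and H2-K1, an MHC class I gene (1.71). Acta2, the smooth muscle actin gene, fell from 14.0 to 4.07 per 10000.

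None of the 6 tested fibroblast list genes was called within the Rgs5 wells by edgeR or DESeq2 (0 at an unadjusted p under 0.05; median 0.08 against 0.01 for all genes). The other markers were too low to be tested there, with 1 Pdgfra UMI in Rgs5 wells with Ly6a and 5 in those without, 8 and 5 Thy1 UMIs and 9 and 7 Cd34 UMIs. Also called were 3 hemoglobin genes, and 446 of their list's 451 UMIs in Rgs5 wells with Ly6a lay in 1 well of the 6-week plate. The count of 15 called genes became 0 without the 2-day wells, without the 13-week wells, on reads and without the line block.

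Outside the Rgs5 wells the genes that rose with Ly6a included many fibroblast genes. C3 had 35, 63 and 15 UMIs in 130 wells with Ly6a and 2, 1 and 3 in 255 wells without (4.52 ± 0.50, adjusted p = 2.66e-07). Col14a1, Clec3b, Myoc and Cd248 were 3.25, 3.11, 2.99 and 2.94 higher, and Ly6c1 was 2.97 higher. Pcolce2, which enhances collagen processing, the chemokine gene Ccl11, Tmem100 and Anxa8 were 2.62 to 2.67 higher. Pdgfra and Cd34 rose here too (2.60 ± 0.48, adjusted p = 0.000247, and 2.47 ± 0.39, adjusted p = 2.77e-05), and Thy1 did not pass (1.02, adjusted p = 0.199). The Pdgfra call was lost with DESeq2 (2.84, adjusted p = 0.0756) and on reads (3.71, adjusted p = 0.0926). Of 1021 genes tested 7.64% rose and 6.86% fell. Of the 18 tested fibroblast list genes 12 rose and 1 fell, and of the 2 tested endothelial list genes 1, Ly6c1, rose. The summed level of the endothelial list was 24.4 UMIs per 10000 with Ly6a and 5.74 without, and Ly6c1 gave 188 of its 359 UMIs with Ly6a. The difference between the companions within and outside the Rgs5 wells was not itself tested.

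**Figure D2:**
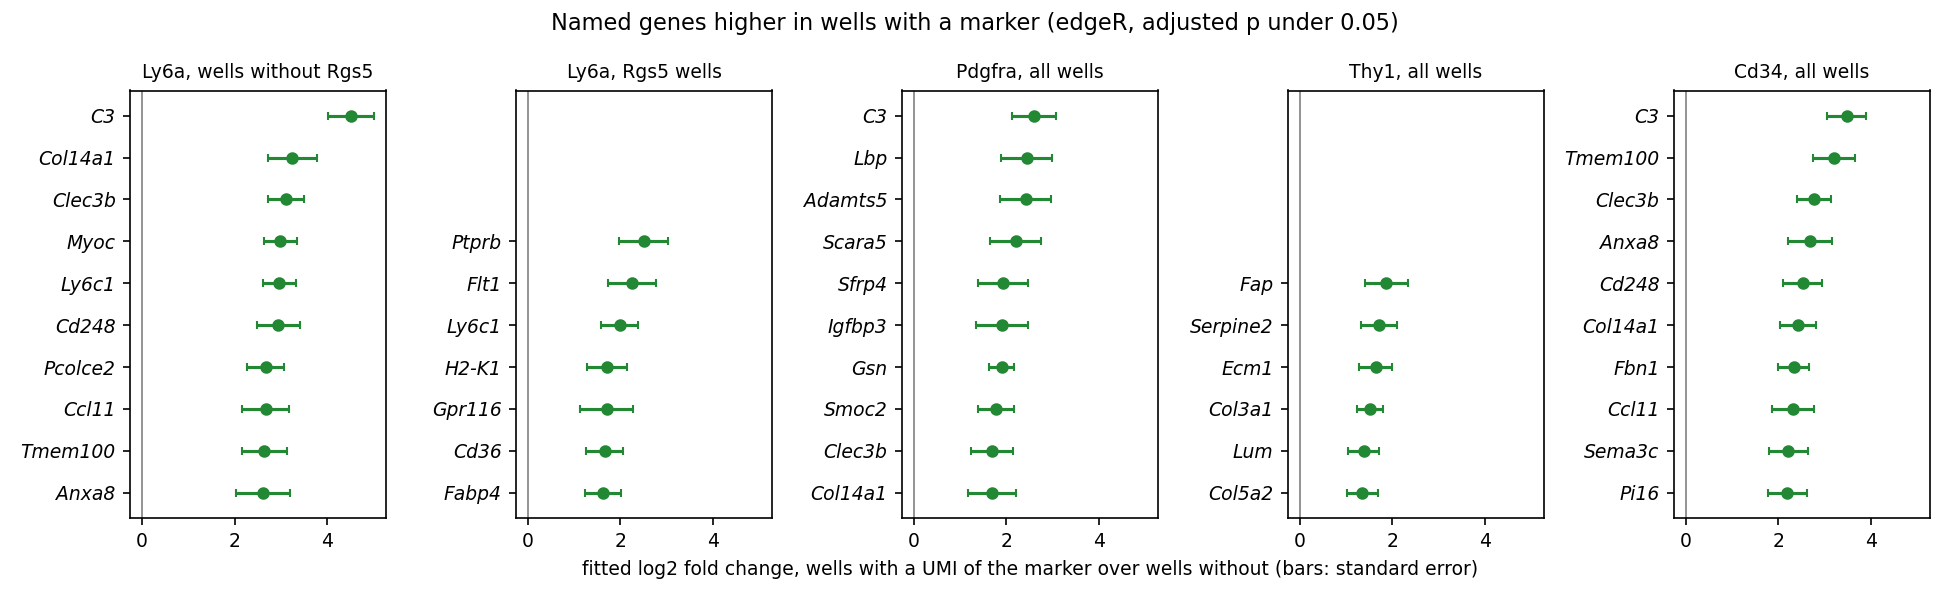
Fitted log2 fold change (x axis) of the named genes (y axis) that were higher in wells with a UMI of a marker than in wells without, for Ly6a outside and within Rgs5 wells and for Pdgfra, Thy1 and Cd34 in all wells. Points are fitted values from 3 pairs of sums. Bars are standard errors derived from the test statistic, not the spread over the pairs. C3 leads for Ly6a outside Rgs5 wells (4.52), Pdgfra (2.59) and Cd34 (3.47), and the genes within Rgs5 wells include Flt1, Cd36 and Fabp4.

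Wells with Pdgfra, a receptor of fibroblasts, had fibroblast genes in greater amounts and less of the endothelial genes Flt1, Cd36 and Fabp4. C3 was at 5.96, 19.3 and 2.07 UMIs per 10000 in wells with Pdgfra and 1.38, 1.35 and 1.59 in wells without (2.59 ± 0.48, adjusted p = 7.54e-06). Gsn was at 103, 175 and 78.8 against 26.6, 33.6 and 25.1 (1.90 ± 0.26, adjusted p = 1.81e-10). The 13-week values come from 3 wells. Lbp, a lipopolysaccharide binding protein, the aggrecanase gene Adamts5, Scara5 and the Wnt antagonist gene Sfrp4 were 2.44, 2.41, 2.20 and 1.93 higher, and Igfbp3, Smoc2, Clec3b and Col14a1 were 1.69 to 1.90 higher.

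Of 18 tested fibroblast list genes 9 rose in wells with Pdgfra and 0 fell (median 1.41 against -0.09 for all genes), while 1.93% of 1399 genes rose and 3.43% fell. Of 6 tested endothelial list genes 3 fell. Fabp4 had 7 UMIs in wells with Pdgfra, all at 6 weeks, against 972 in wells without, and Flt1 had 0 against 102. Ly6c1 of the same list had 81 against 282 UMIs, or 13.0252 against 7.35 per 10000 (adjusted p = 0.123). Among wells without Rgs5, Pdgfra was found in 28.8% of the 66 wells with 2 or more endothelial list UMIs and 7.84% of the 319 wells with fewer. Rgs5 itself had 3 UMIs against 642 and was called lower. Of 14 tendon genes 8 fell, as did all 8 muscle fiber genes and 4 hemoglobin genes. Of the muscle fiber UMIs 42.3% and of the hemoglobin UMIs 94.3% lay in 3 wells each.

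Of the other 3 markers 0 were called in wells with Pdgfra by edgeR or by DESeq2, and 2 had an unadjusted p under 0.05. Cd34 was at 5.66, 7.97 and 6.22 UMIs per 10000 against 3.05, 1.35 and 3.81 (1.36 ± 0.46, adjusted p = 0.0529), and Ly6a at 18.5, 21.0 and 16.6 against 7.84, 10.2 and 11.9 (0.89 ± 0.32, adjusted p = 0.0798). Both were higher at each time without passing the threshold, and Thy1 differed by -0.05 (adjusted p = 0.998). The 75 called genes, of which 27 rose, became 5 without wells that held 2 or more endothelial UMIs, of which 0 rose (58 genes had an unadjusted p under 0.05). With DESeq2 6 of 16 called genes rose, and with a filter of 10 UMIs or no filter 1 of 27 and 1 of 34, so that the upward calls depended on these settings.

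Wells with Cd34 also had more of the fibroblast genes. C3 was at 5.19, 18.3 and 5.58 UMIs per 10000 against 1.14, 0.860 and 0.337 (3.47 ± 0.41, adjusted p = 0.00116). Tmem100, a membrane protein of the BMP pathway in vessels and mesenchyme, was at 2.49, 4.15 and 5.93 against 0.406, 0.469 and 0.337 (3.20 ± 0.45, adjusted p = 0.00161). Clec3b, Anxa8, Cd248 and Col14a1 were 2.77, 2.68, 2.52 and 2.42 higher, and Fbn1, the gene for the microfibril protein fibrillin, Ccl11, the guidance gene Sema3c and Pi16 were 2.19 to 2.33 higher. Of 18 tested fibroblast list genes 10 rose and 0 fell (median 1.42 against -0.03), while 2.86% of 1399 genes rose and 2.43% fell.

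Ly6a was at 18.3, 26.6 and 30.3 UMIs per 10000 in wells with Cd34 and 6.67, 8.45 and 6.28 in wells without (1.77 ± 0.23, adjusted p = 0.00161). Pdgfra was 1.41 ± 0.43 and Thy1 1.17 ± 0.46 higher without passing (adjusted p = 0.0948 and 0.217), so that 1 of the 3 other markers rose. Of 6 tested endothelial genes 1 was called, Ly6c1 (15.7 against 5.79 per 10000), and Fabp4 was at 16.0, 3.11 and 26.2 against 7.15, 26.4 and 44.1 (adjusted p = 0.621). Among wells without Rgs5, Cd34 was found in 45.5% of the 66 wells with 2 or more endothelial list UMIs (8.62 per 10000) and 13.5% of the 319 wells with fewer (2.22 per 10000). The Ly6a call was lost on reads (2.25, adjusted p = 0.0721), without the 13-week wells (1.59, adjusted p = 0.0843) and without wells with endothelial transcripts (1.39, adjusted p = 0.0846), and 0 genes were called on reads or without the 13-week wells.

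The genes that rose in wells with Thy1 included matrix genes. Fap, a membrane protease of activated fibroblasts, was at 2.68, 7.33 and 1.4996 UMIs per 10000 against 0.941, 1.91 and 0.383 (1.87 ± 0.46, adjusted p = 0.0265). Serpine2, a protease inhibitor, was at 9.82, 6.94 and 4.50 against 1.55, 3.97 and 1.53 (1.71 ± 0.39, adjusted p = 0.0219). Col3a1, the type III collagen gene, was at 167, 107 and 42.7 against 59.7, 30.3 and 20.0025 (1.52 ± 0.29, adjusted p = 0.00699), and Ecm1, the small proteoglycan gene Lum and Col5a2 were 1.64, 1.38 and 1.35 higher. In all, 7 of 1399 genes (0.5%) rose and 17 (1.22%) fell. Of the lists, 6 of 8 tested muscle fiber genes and 3 of 4 tested hemoglobin genes were among those that fell. These falls rest on few wells, as 42.3% of muscle fiber UMIs and 94.3% of hemoglobin UMIs lay in 3 wells each.

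Of 18 tested fibroblast list genes 2, Lum and Col3a1, rose in wells with Thy1 (median 0.70 against 0.03 for all genes). None of 14 tendon, 6 endothelial, 8 perivascular or 5 osteoblast genes was called by edgeR or by DESeq2, and 3, 3, 2 and 3 of them had an unadjusted p under 0.05. Of the other 3 markers 0 were called by either tool and 2 had an unadjusted p under 0.05. Ly6a was at 14.7, 10.8 and 30.7 UMIs per 10000 against 9.21, 11.999 and 9.76 (0.77 ± 0.33, adjusted p = 0.361), and Cd34 was 0.95 ± 0.39 higher (adjusted p = 0.340). The count of 24 called genes became 1 or 0 under 9 of 16 alternatives. Under 11 of them 0 genes rose, among these the filters of 10 UMIs and none, where all 40 and 62 called genes fell.

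No other progenitor surface marker was called together with the 4 genes. Of 16 such genes, among them Cd200, Pdgfrb, Itgav, Eng, Cd44 and Lepr, 6 had enough UMIs to be tested, and 0 were called in wells with Ly6a, Pdgfra, Thy1 or Cd34 by edgeR or DESeq2, while 2, 1, 0 and 0 had an unadjusted p under 0.05. Their summed level was 36.4 UMIs per 10000 in wells with Ly6a and 36.9 in those without. In Rgs5 wells 3 of the 6 rose. Pdgfrb, the pericyte receptor, was at 8.08 against 2.12 per 10000, Cd200, a surface protein of some skeletal stem cells, at 7.43 against 1.73 and Itgb1, an integrin chain, at 7.11 against 3.97.

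Among 14 relatives and partners of the markers, 4 could be tested. In the tendon gate, Pdgfrl, a secreted protein related to the PDGF receptors, was at 5.05 UMIs per 10000 against 1.23 (2.19 ± 0.35, adjusted p = 0.00261), and Pdgfa, the ligand of PDGFRα, at 2.64 against 1.02 (1.62 ± 0.44, adjusted p = 0.0330). The ligand was thus higher in the tendon gate wells, in which its receptor was lower without passing the test. Ly6c1 was at 1.94 against 11.98 there and fell. In Rgs5 wells Ly6c1 and Ly6e rose, to 15.3 and 6.35 per 10000 against 6.26 and 2.32.

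Over time, levels were compared as ratios of pooled UMIs per 10000, without a test. Pdgfra was at 1.93, 1.85 and 0.339 UMIs per 10000 at the 3 times. The 13-week level was 0.176 times that at 2 days (0.0453 to 0.495), on 4 against 33 UMIs. On reads the ratio was 0.635, as the 4 UMIs at 13 weeks carried 17.25 reads each, against 4.36 at 2 days. In wells outside both gates the ratio was 0.241 (0.0459 to 0.806), on 3 against 21 UMIs. That class is what the gates leave over, and whether its make-up was the same at both times was not tested. Between 2 days and 13 weeks the summed level of the endothelial list also went from 21.9 to 74.3 UMIs per 10000 and that of the perivascular list from 26.4 to 47.0193, the pooled mitochondrial share of UMIs went from 5.71% to 7.26%, and 181 of 192 wells were kept against 133 of 192. The part of these in the Pdgfra values was not tested.

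Ly6a was at 9.93, 11.8 and 12.1 UMIs per 10000 at the 3 times, with ratios to 2 days of 1.19 (0.960 to 1.47) at 6 weeks and 1.22 (0.972 to 1.54) at 13 weeks. In wells outside both gates the ratios were 1.42 (1.08 to 1.85) and 1.51 (1.13 to 2.01) with intervals that take each UMI as independent, although at 13 weeks 5 wells held 42.7% of all Ly6a UMIs. At equal depth the share of these wells with a Ly6a UMI was 22.5%, 32.5% and 26.7% averaged over all draws of 300 UMIs. In the 1 draw with intervals it was 31.2%, 28.9% and 28.6%, and the differences from 2 days included 0 (-17.4 to 13.1 and -19.3 to 15.2 percentage points). At 2 days that draw lay well above the average, and its direction was opposite to that of the average. The shares therefore do not settle whether Ly6a rose in these wells. Cd34 was at 3.56, 2.36 and 3.904, with ratios of 0.662 (0.428 to 1.01) and 1.10 (0.731 to 1.63). In Rgs5 wells Cd34 had 11 UMIs at first, 1 at 6 weeks (ratio 0.0604, 0.0014 to 0.416) and 4 at 13 weeks (0.278). Thy1 was at 1.58, 1.59 and 1.27, with ratios of 1.01 (0.563 to 1.81) and 0.807 (0.399 to 1.57).

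Of the genes with 100 or more UMIs in both lines together, 2.82% of 355 were 2-fold or more higher and 6.48% were 2-fold or more lower at 13 weeks than at 2 days. At 6 weeks 2.13% of 423 genes were higher and 0.946% lower by that measure. Ly6a at both times and Cd34 at 13 weeks were among these genes and did not reach a 2-fold difference, and Pdgfra and Thy1 had too few UMIs to be counted. The summed level of the fibroblast list was 355, 375 and 198 UMIs per 10000 at the 3 times. Of its 20 genes 16 had a ratio below 1 at 13 weeks, as did 235 of the 355 genes (medians 0.691 and 0.908). The 16 ran from Pi16 (0.153, 2 UMIs against 19) and Col3a1 (0.306) upward. The 4 with a ratio above 1 were Dpp4 (3.23, 20 UMIs against 9), Cd55 (2.91), Mfap5 (1.20) and Fbn1 (1.05). Age, strain, doxycycline and chase time differ together in this contrast and cannot be told apart.

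**Figure D3:**
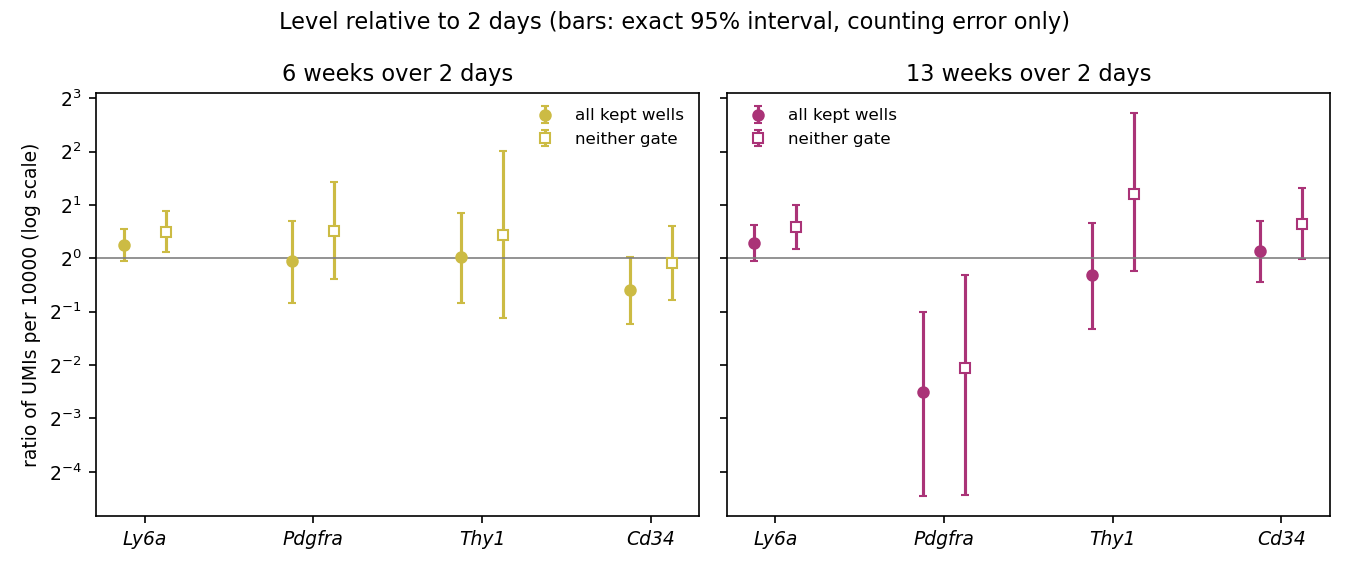
Ratio of the level of each marker (UMIs per 10000, log scale) at 6 weeks and at 13 weeks to that at 2 days, for all kept wells (filled circles) and for wells outside both gates (open squares). Bars are exact 95% intervals for counting error only. Pdgfra lies below 1 at 13 weeks in both sets of wells (0.176 and 0.241), and Ly6a outside both gates lies above 1 at both times (1.42 and 1.51). At equal depth the shares of those wells with Ly6a were 22.5%, 32.5% and 26.7% at the 3 times, averaged over all draws. In the 1 draw with intervals they were 31.2%, 28.9% and 28.6%, so that they do not settle the direction.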

How the data were processed

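Single Tomato+ cells were sorted into 384-well plates and sequenced from the 3′ end by Drop-seq chemistry adapted to plates. The submitters' processing notes name bcl2fastq 2.18.0.12, Picard 2.9.3 and STAR 2.5.4a with GRCm38. The paper's methods name the same STAR version for alignment but another Picard version. For each of 2 plates the authors deposited unnormalized counts by gene and well, once as UMIs and once as reads, and a map from wells to samples. The 168 wells assigned to no sample were not used, and genes missing from a plate's table were taken as 0 there. Wells with 200 or more genes were kept, and no doublets were removed.

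UMIs were summed per time point and class of wells, giving 6 sums per comparison, and compared with edgeR 4.0.16 (R 4.3.3, TMM, quasi-likelihood test, time point as block, genes with 50 or more UMIs, Benjamini-Hochberg adjustment, threshold 0.05, 2 residual degrees of freedom). The sums of 1 time point share mice, plate and preparation, which is where the pairing comes from. Each SE is the absolute log2 fold change divided by the square root of the test's F statistic. That statistic uses a dispersion estimated with information shared over genes, so the SE is not the spread over the pairs. The fit was tested on simulated data with known changes. DESeq2 1.42.0 was an alternative. Levels are UMIs per 10000 with Poisson intervals, shares have Clopper-Pearson intervals, both at 95%, and the limit for a count of 0 is 3 counts. Python 3.11.15, numpy 2.4.6, pandas 2.3.3, scipy 1.17.1 and matplotlib 3.10.9 were used. At 246 to 3928 UMIs per well, a gene without a UMI is not shown to be absent.

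Named were the 4 markers, genes of the marker lists past the threshold, and the 10 largest changes past the threshold with 1 direction at all 3 times, upwards for markers and both ways for the gates. The markers and lists were chosen with earlier results of these data known. The time ratios of other genes and Acta2 as the label's gene were chosen after their values were seen. Alternatives changed the tool, scaling, filter, block, unit, gene minimum, depth, gates and wells included.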

Additional observations from a re-analysis of the deposited data

Results flagged for a closer look

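Wells below the minimum of 200 genes, which entered no comparison, also held a marker. Over 97 such wells with 16690 UMIs in all, Ly6a had 14 UMIs in 13 wells, or 8.39 per 10000 against 11.2 in the kept wells. Thy1 had 3 UMIs there, and Pdgfra and Cd34 had 0.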

How the results depend on the processing

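Limits: the comparisons rest on 3 pools, most detections on 1 UMI, and depth limits Thy1 and Pdgfra most. In the order Rgs5 gate, tendon gate, wells with Ly6a, Pdgfra, Thy1, Cd34, Ly6a within and Ly6a outside Rgs5 wells, the number of genes called was 220, 227, 147, 75, 24, 74, 15 and 148. It was 79, 104, 59, 16, 1, 38, 8 and 40 with DESeq2, and 113, 150, 56, 37, 1, 31, 0 and 82 with no replicate block. The block uses the pairing by time point, and without it Thy1 in wells with Pdgfra was at 0.0192 and Pdgfra in wells with Thy1 at 0.0636, both reversed. On reads the counts were 54, 98, 28, 28, 1, 0, 0 and 48. The cause of these shifts was not tested.

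Of the filters, 10 UMIs gave 385 genes in the tendon gate, 27 with Pdgfra, 40 with Thy1 and 116 with Cd34, and no filter gave 34 with Pdgfra, 62 with Thy1 (0 rose with Thy1 under either) and 3 for Ly6a within Rgs5 wells. The median log2 change of all genes moved with the filter, from 0.00 to -0.36 and -0.74 in the Rgs5 gate and from 0.03 to -0.52 and -1.31 with Thy1 (10 UMIs and no filter), and member values are to be read against that. A minimum of 300 genes gave 144 genes in the Rgs5 gate and 1 with Thy1. Wells grouped after thinning gave 92, 9, 0, 39 and 1 with Ly6a, Pdgfra (13-week line dropped, as no Pdgfra well was left), Thy1, Cd34 and Ly6a within Rgs5 wells. Without the deepest 5% of wells there were 120 in the Rgs5 gate, 68 with Ly6a and 32 with Pdgfra. Without muscle fiber wells 14 were called with Thy1. Without tendon gate wells 125 were called in the Rgs5 gate and 1 with Thy1. Without wells with endothelial UMIs 88, 5, 0 and 18 were called with Ly6a, Pdgfra, Thy1 and Cd34. Leaving out each time point gave 67 (without 2 days) to 130 genes in the Rgs5 gate, 0 (without 6 weeks) to 184 in the tendon gate, 29 (without 6 weeks) to 121 with Ly6a, 17 to 20 with Pdgfra, 1 to 25 with Thy1, 0 (without 13 weeks) to 81 with Cd34, 0 to 8 for Ly6a within and 72 to 110 outside Rgs5 wells.

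Thy1 in the Rgs5 gate (0.03) turned to -0.10 with DESeq2, -0.00663 with RLE factors, -0.42 and -0.60 with the lower filters, -0.27 on reads, -0.0559 without muscle fiber wells and -0.18 at 2 or more Rgs5 UMIs, and in the tendon gate (0.32) to -0.96 after thinning, -0.0181 without the deepest wells and -0.0282 at 5 UMIs. Ly6a in the Rgs5 gate (-0.17) turned to 0.00349 without the deepest wells, with 0.0277 as its highest and -0.25 as its lowest value without a time point. Thy1 with Pdgfra turned to 0.79 after thinning and 0.13 without the deepest wells (0.17 without 13 weeks). Ly6a with Thy1 turned to -0.0120 with no filter, and Pdgfra with Thy1 to 0.14 without the deepest wells (0.00442 without 13 weeks). None of these passed the threshold. Cd34 in the Rgs5 gate passed at -1.44 and -1.60 with the lower filters, -1.66 without tendon wells and -1.42 at 2 or more Rgs5 UMIs, where Pdgfra had 0 UMIs (-6.44, which is no bound). Pdgfra in the tendon gate passed at -1.53 with RLE factors, -1.60 and -1.69 with the lower filters, -2.81 after thinning, -1.56 without muscle fiber wells, -1.69 without Rgs5 wells and -2.19 at 5 UMIs. Without a time point, Ly6a in the tendon gate was at -1.60 to -0.98 and Cd34 at -2.18 to -1.97, with the calls lost as given above.

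Of the values over time, Pdgfra at 13 weeks moved to 0.635 on reads, Thy1 at 13 weeks to 2.32 outside both gates and Ly6a at 6 weeks to 1.52 without the deepest wells. Shares of wells moved with the thinning depth: Ly6a to 14.4% (2 days) and 13.5% (13 weeks) at 200 UMIs, 31.2% (6 weeks) at 500 UMIs and 13.8% (2 days) at 300 reads, Pdgfra to 2.21% (2 days) at 300 reads and 2.65% (6 weeks) at 200 UMIs, Thy1 to 7.30% and 8% (2 days and 6 weeks) at 500 UMIs and 4.95% (6 weeks) with another seed, and Cd34 to 16.1% and 11.2% (2 days and 6 weeks) at 500 UMIs. Of the values that answer a comparison, 333 kept their direction and side of the threshold (counts within 1.5 times), 64 lost the threshold or were smaller counts, 16 passed it or were larger counts, 14 untested values moved beyond their interval and 12 changed direction. Detection by 2 or more reads was an alternative for pairs chosen after seeing the data.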
